A study of Mus musculus with 4 samples.

Results

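Enteroendocrine cells are the hormone-secreting cells of the gut epithelium, and 31 of their genes were followed in the mouse colon during dextran sulphate sodium (DSS) colitis. The 31 genes encode hormones, the enzymes of serotonin synthesis, granule proteins, prohormone-processing enzymes and transcription factors of the lineage. They were found by gene name among the 37074 gene names of a 1-colour Agilent array. RNA came from the whole colon of C57BL/6 mice on day 5 of DSS, a detergent-like polymer that injures the epithelium. There were 2 control arrays (genotype Junb fl/fl, floxed alleles and no Cre) and 2 mutant arrays (Junb fl/fl Cd4-Cre, the same floxed alleles with a Cre that the Cd4 promoter drives in the T cell lineage). All mice carried the floxed alleles and all were given DSS, so neither an undamaged colon nor a Cre-only mouse was part of the comparison. Junb encodes a DNA-binding AP-1 subunit, and the Cre is not aimed at epithelial cells. The ages of the mice, and whether an array pooled several mice, are not given in the sources used here.

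Enteroendocrine cells arise from crypt progenitors under the transcription factors Neurog3 and Neurod1. Each cell packs its peptides into dense-core granules with granins, and cuts them from longer precursors at paired basic residues with the convertases that Pcsk1 and Pcsk2 encode. In the colon the main kinds are L cells, which make glucagon-like peptides, peptide YY and insulin-like peptide 5, enterochromaffin cells, which make serotonin, and D cells, which make somatostatin. They are rare cells scattered through the epithelium. In RNA of a whole tissue, fewer such cells and less RNA per cell cannot be told apart.

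Values below are log2 signals, where 0 is the 75th percentile of the array's own spots and 1 unit is a 2-fold step. Differences are mutant minus control with the moderated standard error (SE) of limma, n = 2 and 2 arrays. Of the 31 genes, 24 had a probe that stood well above background on 2 or more arrays and were tested among 19325 genes. Of these 24 genes, 23 were well above background on all 4 arrays. Pax4 was so on 2 controls and 1 mutant, so its controls alone met the filter. No gene of the 19325 passed a Benjamini-Hochberg adjusted p of 0.05 in limma (0% of genes), and 1796 had an unadjusted p under 0.05.

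The targeted gene and the sexes were checked first. The brightest Junb probe gave 4.23 and 4.39 in the controls, against 4.44 and 4.47 in the mutants, and whole tissue is no check of a deletion in T cells. Xist, from the inactive X chromosome, was at -0.55 and -0.77 on the replicate 1 arrays and not well above background on the replicate 2 arrays, and the Y-linked gene Eif2s3y showed the opposite. The RNA of replicate 1 of each genotype was therefore female and that of replicate 2 male. The differences within each sex, each 1 array against 1, are given beside the pooled value of each of the 24 genes. General epithelial genes, such as those of cell adhesion and keratins, were well above background throughout (11 of 11 tested).

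Enteroendocrine genes were lower in the mutant colon. Of the 24 tested genes, 23 had a lower mean in the mutants and 1, Gfra3, a higher mean, where 46.6% of all tested genes had a lower mean. The median log2 difference was -0.55 (female pair -0.58, male pair -0.48), against 0.02 over all tested genes. Both mutants lay below both controls for 20 of the 24 genes, as they did for 17.6% of all genes. The opposite order was seen for 1 of the 24, against 25.7% of all genes. In both sexes the mutant was the lower array for 22 of the 24, against 29.1% of all genes. An unadjusted p under 0.05 was reached by 13 of the 24, all lower, and by 3.98% of all genes in that direction. None was higher at that threshold, where 5.31% of all genes were. The adjusted p of the 24 genes ran from 0.373 (Chga) to 0.833 (Pcsk2). Leaving out 1 array gave between 9 such genes (without mutant replicate 1) and 14 (without mutant replicate 2). Each such fit has 1 array in a group, which is assumed to vary like the other group.

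**Figure D1:**
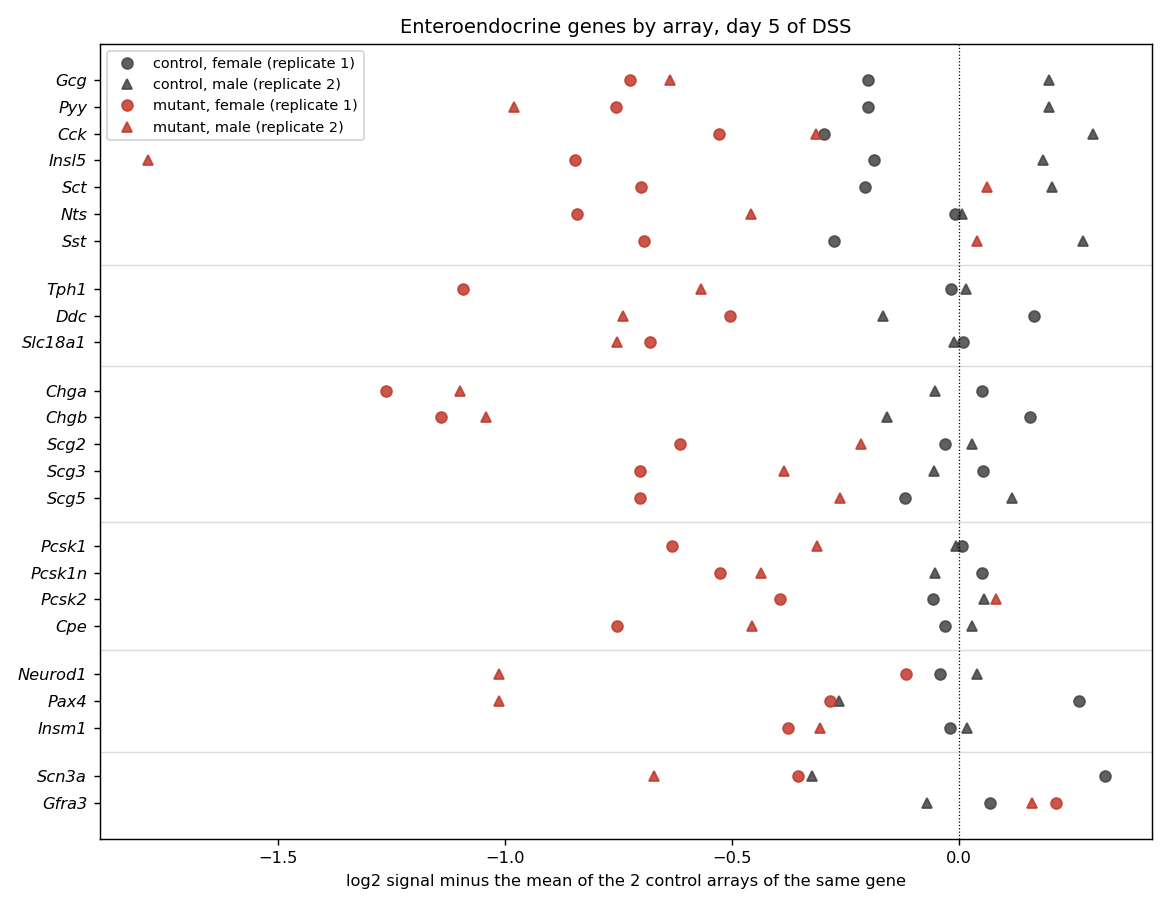
Log2 signal of each of the 24 tested enteroendocrine genes on each array, as the distance from the mean of the 2 controls of that gene (x axis), grouped by role from hormones (top) to other markers (bottom). Grey points are controls, red points mutants, circles the female and triangles the male colon. For 20 genes both red points lie left of both grey points, and Gfra3 is the single gene with both red points to the right.

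The granins Chga and Chgb had the smallest p-values among the 24 genes. Granins are acidic proteins that aggregate with hormones in the core of the granule, and chromogranin A, from Chga, is the general marker of endocrine cells of the gut. Chga was at 4.18 and 4.08 in the controls, against 2.87 and 3.03 in the mutants. Both mutants lay more than 1 log2 unit below the lower control. The difference was -1.18 ± 0.11 (2.27-fold lower, limma unadjusted p = 0.000128, adjusted p = 0.373), or -1.32 for the females and -1.05 for the males, and by p-value Chga ranked 4 among the 19325 genes. Chgb, the related chromogranin B, was at 4.83 and 4.51 in the controls, against 3.53 and 3.63 in the mutants, a difference of -1.09 ± 0.14 (2.13-fold lower, unadjusted p = 0.000523). The groups did not overlap, and females (-1.30) and males (-0.88) had the same direction.

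The other granule proteins had smaller differences. Secretogranin II, from Scg2, is a granin that neurons make as well, and Scg2 was at 1.38 and 1.44 in the controls, against 0.80 and 1.20 in the mutants (-0.41 ± 0.17, females -0.58, males -0.25, unadjusted p = 0.0545). Scg3 encodes a granin that binds chromogranin A to the granule membrane. Its signal was -0.19 and -0.30 in the controls against -0.94 and -0.63 in the mutants (-0.54 ± 0.17, females -0.76, males -0.33, unadjusted p = 0.0231). Without control replicate 1 (unadjusted p = 0.0880) or mutant replicate 1 (unadjusted p = 0.128) Scg3 did not pass the unadjusted threshold. Scg5, which encodes 7B2, the chaperone of the convertase PC2, was at -0.31 and -0.07 against -0.89 and -0.45 (-0.48 ± 0.20, females -0.58, males -0.38, unadjusted p = 0.0635). In all 3 genes the female mutant was the lowest array, and no mutant reached a control. Without mutant replicate 2, Scg2 (-0.61, unadjusted p = 0.0196) and Scg5 (-0.70, unadjusted p = 0.0300) passed the unadjusted threshold.

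Among the peptide hormones, those of L cells and neurotensin were lower at an unadjusted p under 0.05. The probes of 3 of these hormones lie over coding sequence, and they are shown because their signal reads the hormone message itself. In the Nts and Pyy probes capitals mark codons of neighbouring basic residues (lysine or arginine), whether or not the precursor is cut there. In the Insl5 probe they mark the cysteine codons of the A chain. The probes are 60 bases each and lie on the minus strand at chr10:101944967-101945026 (Nts), chr11:101968311-101968370 (Pyy) and chr4:102690720-102690779 (Insl5) of mm9, per the files.
Nts: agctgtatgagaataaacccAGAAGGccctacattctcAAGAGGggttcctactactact
Pyy: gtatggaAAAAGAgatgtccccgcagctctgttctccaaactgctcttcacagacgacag
Insl5: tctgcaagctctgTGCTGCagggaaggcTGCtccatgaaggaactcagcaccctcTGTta

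Insulin-like peptide 5, an L cell hormone of the distal gut that acts on the receptor Rxfp4, had the largest difference of the 24 genes. Insl5 was at 1.88 and 2.25 in the controls, against 1.22 and 0.28 in the mutants (-1.32 ± 0.33, 2.49-fold lower, unadjusted p = 0.0105). The male mutant was the lowest array by a wide margin: the difference was -1.97 in the male pair and -0.66 in the female pair, and -0.84 without mutant replicate 2. Peptide YY, which slows gut transit and curbs food intake, followed the same order. Pyy was at 3.67 and 4.07 in the controls, against 3.11 and 2.89 in the mutants (-0.87 ± 0.17, 1.82-fold lower, unadjusted p = 0.00385), with -0.55 in the female and -1.18 in the male pair. Gcg encodes the precursor of glucagon and of the glucagon-like peptides, which promote insulin release and growth of the gut lining. Its brighter probe was at 2.79 and 3.19 in the controls, against 2.27 and 2.36 in the mutants (-0.68 ± 0.16, females -0.52, males -0.84, unadjusted p = 0.00818). A dimmer Gcg probe, designed on another transcript and well above background on 3 arrays, went the other way (0.33), and the mean of the Gcg probes gave -0.18 (unadjusted p = 0.267).

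Neurotensin, from Nts, is a peptide of endocrine cells and of enteric neurons that acts on gut motility. Nts was at 2.184 and 2.199 in the controls, against 1.35 and 1.73 in the mutants (-0.65 ± 0.16, females -0.83, males -0.47, 1.57-fold lower, unadjusted p = 0.00896). Here the female mutant was the lower array, the reverse of Insl5 and Pyy. The remaining hormones did not pass the unadjusted threshold. Cck, which encodes cholecystokinin, was at 0.32 and 0.92 in the controls, against 0.09 and 0.31 in the mutants (-0.42 ± 0.23, females -0.23, males -0.61). Without control replicate 1 the difference of Cck was -0.72 (unadjusted p = 0.0139). Sct, for secretin, was at 4.26 and 4.67 in the controls, against 3.76 and 4.53 in the mutants (-0.32 ± 0.29, females -0.49, males -0.14), and Sst, for somatostatin, the inhibitory hormone of D cells and some enteric neurons, at 3.64 and 4.19 against 3.22 and 3.95 (-0.33 ± 0.30, females -0.42, males -0.23). The groups overlapped for both genes, with the male mutant between the controls, and without mutant replicate 1 the differences were 0.063 for Sct and 0.040 for Sst. Without mutant replicate 2 the difference of Sct was -0.70 (unadjusted p = 0.0292).

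**Figure D2:**
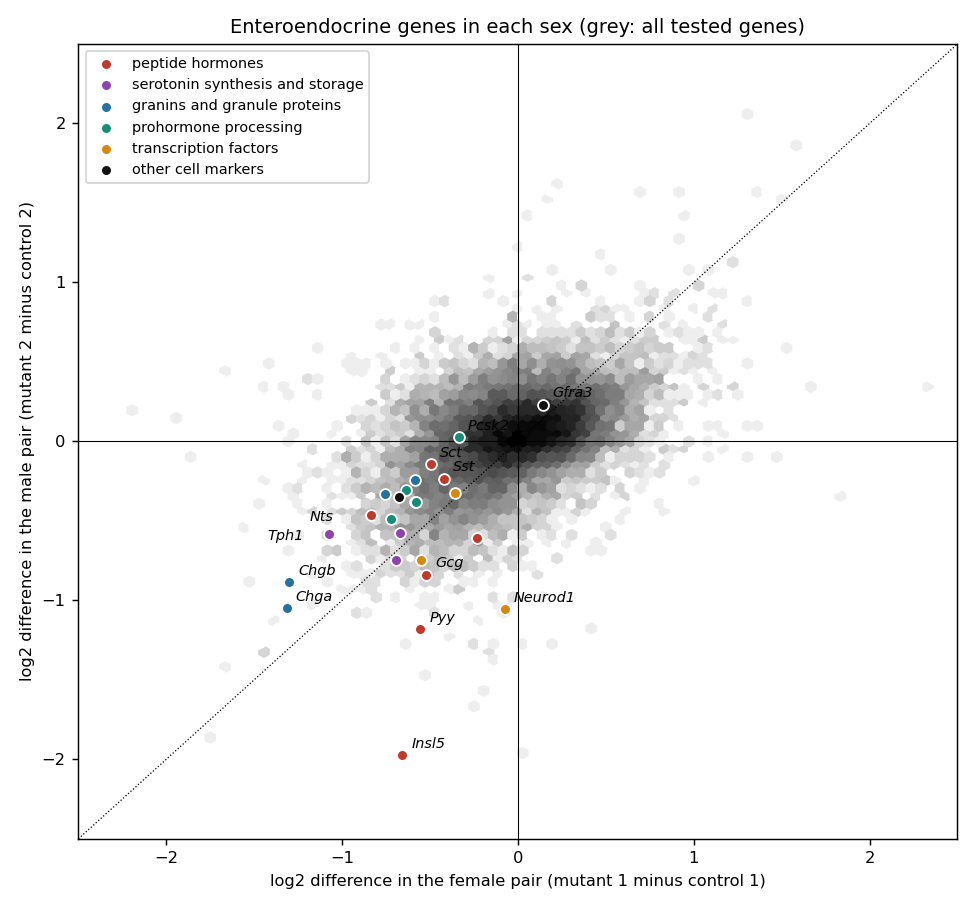
Log2 difference in the female pair (x axis) against that in the male pair (y axis), each 1 mutant array minus 1 control array, for the 24 tested genes coloured by role, over all tested genes in grey (darker means more genes, genes outside the axes are not drawn). Insl5 (-0.66 and -1.97), Pyy and Neurod1 lie below the dotted line of equal differences, Chga and Chgb lie near it on its upper side, and 22 of the 24 genes lie below 0 on both axes.

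The 3 genes of serotonin synthesis and storage were lower by similar amounts. Enterochromaffin cells make serotonin from tryptophan with tryptophan hydroxylase, from Tph1, and the decarboxylase that Ddc encodes, and load it into granules with the transporter that Slc18a1 encodes. Tph1 was at 0.55 and 0.58 in the controls, against -0.53 and -0.0043 in the mutants (-0.83 ± 0.20, females -1.08, males -0.58, 1.78-fold lower, unadjusted p = 0.00926). Ddc was at 2.90 and 2.57 in the controls, against 2.23 and 1.99 in the mutants (-0.62 ± 0.16, females -0.67, males -0.57, unadjusted p = 0.0118, and 0.0640 without mutant replicate 2). The Slc18a1 signal was -1.976 and -1.996 against -2.67 and -2.74 (-0.72 ± 0.20, females -0.69, males -0.74, unadjusted p = 0.0146). No mutant reached a control in any of the 3 genes. Further probes that passed the filter had the same sign, at -0.68 for Tph1, -0.47 for Ddc, and -0.45 and -1.11 for Slc18a1. After normexp background correction Slc18a1 differed by -0.36 (unadjusted p = 0.197), and it did not pass without mutant replicate 1 (unadjusted p = 0.0560) or mutant replicate 2 (unadjusted p = 0.0759). Mast cells of the gut can also express Tph1, and their part was not tested. Of 10 mast cell markers 7 were tested, 6 lower and 1 higher, with a median difference of -0.13 (females 1.19, males -1.45). Kit differed by -0.36 ± 0.24, Tpsb2 by -0.31 ± 0.28 and Cma1 by 0.19 ± 0.63, and the groups overlapped for each. The summed linear signal of the 7 markers, in units of each array's 75th percentile, was 3.48 and 8.72 in the controls, against 3.53 and 4.62 in the mutants. Tpsab1, Fcer1a and Ms4a2 stood well above background on no array.

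Of the 4 genes of prohormone processing, 3 were lower at an unadjusted p under 0.05 and Pcsk2 was not. Carboxypeptidase E, from Cpe, trims the basic residues left after the convertases have cut. Cpe was at 4.40 and 4.46 in the controls, against 3.68 and 3.97 in the mutants (-0.60 ± 0.13, females -0.72, males -0.49, 1.52-fold lower, unadjusted p = 0.00613). Pcsk1n, which encodes proSAAS, an inhibitor of the convertase PC1/3, was at 1.22 and 1.11 in the controls, against 0.64 and 0.73 in the mutants (-0.48 ± 0.12, females -0.58, males -0.38, unadjusted p = 0.00985, and 0.0661 without mutant replicate 1). Pcsk1 encodes PC1/3 itself, the convertase that frees glucagon-like peptides in L cells. It was at -0.26 and -0.27 against -0.90 and -0.58 (-0.47 ± 0.17, females -0.64, males -0.31, unadjusted p = 0.0355), and it did not pass without control replicate 1 (unadjusted p = 0.0995), control replicate 2 (unadjusted p = 0.0899) or mutant replicate 1 (-0.31, unadjusted p = 0.192). Pcsk2, for PC2, was at -0.82 and -0.71 in the controls, against -1.16 and -0.68 in the mutants (-0.16 ± 0.21, females -0.34, males 0.026). The male mutant was as high as the controls there.

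Only 3 of the 9 transcription factors were bright enough to be tested, and none passed the unadjusted threshold. Neurod1, which acts after Neurog3 as progenitors leave the cell cycle, was at -2.85 and -2.77 in the controls, against -2.93 and -3.83 in the mutants (-0.56 ± 0.37, females -0.075, males -1.05). Its difference lay in the male mutant, and it was -0.12 without mutant replicate 2. Insm1, a zinc-finger repressor needed for endocrine differentiation, was at -1.22 and -1.18 against -1.57 and -1.50 (-0.34 ± 0.16, females -0.36, males -0.33, unadjusted p = 0.0814). Pax4, which guides serotonin and somatostatin cells, was at -3.17 and -3.69 in the controls, against -3.71 and -4.44 in the mutants (-0.65 ± 0.41, females -0.55, males -0.75), with the male mutant not well above background. After normexp correction the difference was -0.16 for Neurod1, -0.18 for Insm1 and -0.10 for Pax4. Neurog3, the factor that starts the lineage, stood well above background on no array, nor did Rfx6, Fev and Pax6. Isl1 was so on 1 array, and 2 Nkx2-2 probes on 1 array each.

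The 3 remaining markers did not move together. Gfra3, a receptor subunit for the neurotrophic factor artemin, was at -1.17 and -1.31 in the controls, against -1.02 and -1.08 in the mutants (0.19 ± 0.16, females 0.14, males 0.23, unadjusted p = 0.281). Scn3a, a sodium channel gene, was at -2.95 and -3.59 against -3.62 and -3.94 (-0.51 ± 0.36, females -0.67, males -0.35), and another Scn3a probe was well above background in the controls alone. Scgn, for the calcium-binding protein secretagogin, stood well above background on no array.

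**Figure D3:**
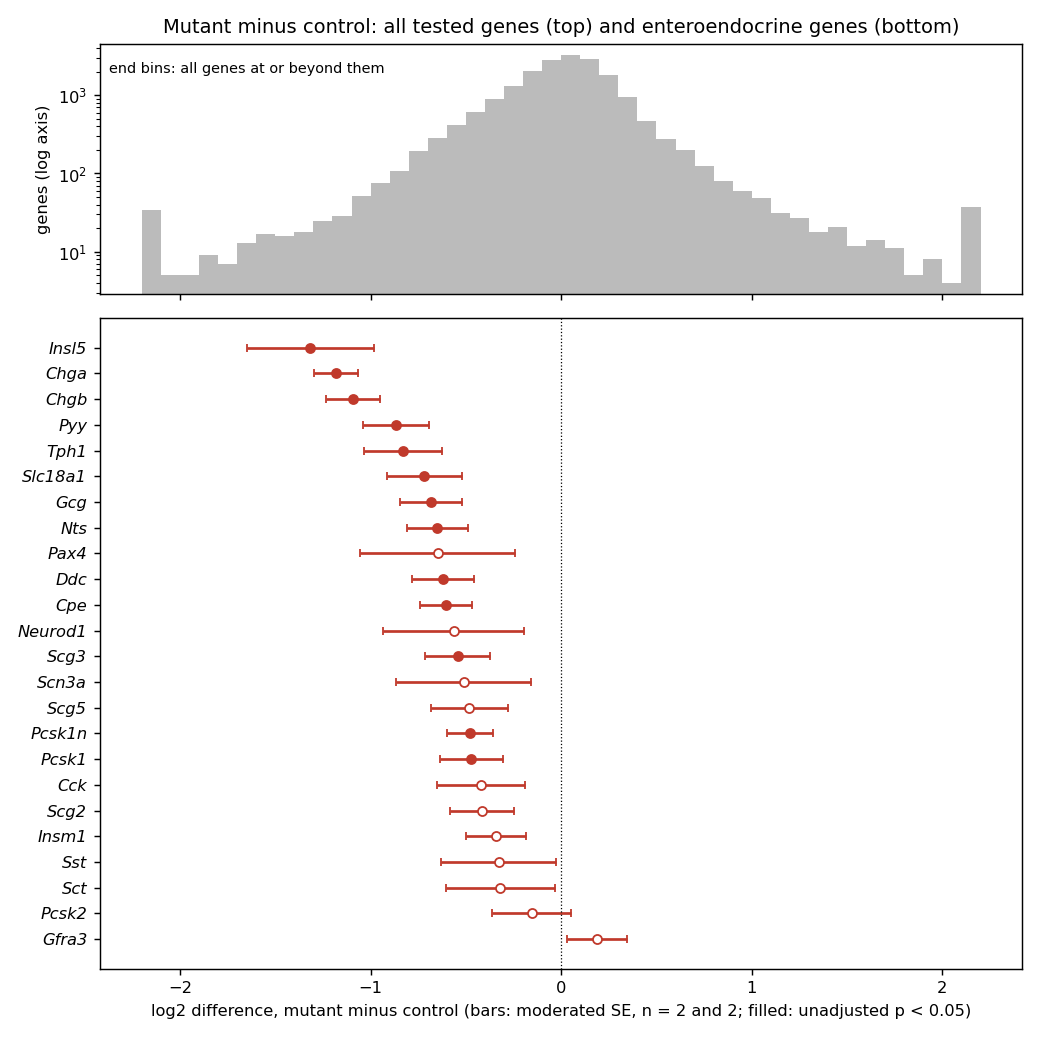
Top, number of tested genes (log axis) by log2 difference, mutant minus control, for all 19325 genes. Bottom, the 24 enteroendocrine genes in order of their difference, with bars for the moderated SE (n = 2 and 2) and filled points for an unadjusted p under 0.05. The genes run from Insl5 (-1.32) to Gfra3 (0.19), and 13 points are filled.

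Promoter sequences were at hand for 25 of the 31 genes (RefSeq, GRCm38.p6, 250 bases before to 50 after each annotated start). The cAMP response element, the letters TGACGTCA (its own reverse complement), was in the window of 5 genes, Chgb, Scg2, Pcsk1, Sst and Pax6, or 20% of the 25, against 2.03% of the 27025 genes in the table. Counted from the start site, the 5 matches began at positions -78 to -48. Chga had the variant TGACGTAA, a motif looked for after its sequence had been seen, which 0.581% of all genes hold on either strand. The 100 bases before the start of the 5 tested genes among these are shown, with the match in capitals, since these genes encode 3 granins, a convertase and a hormone of 1 secretory pathway. They lie at chr12:102554841-102554940 (Chga, plus strand), chr2:132781542-132781641 (Chgb, plus), chr1:79440027-79440126 (Scg2, minus), chr13:75089757-75089856 (Pcsk1, plus) and chr16:23890845-23890944 (Sst, minus).
Chga: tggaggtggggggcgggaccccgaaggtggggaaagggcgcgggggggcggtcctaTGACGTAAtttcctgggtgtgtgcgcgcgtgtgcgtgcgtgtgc
Chgb: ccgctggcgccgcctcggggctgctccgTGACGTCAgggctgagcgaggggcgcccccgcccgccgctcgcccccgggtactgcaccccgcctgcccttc
Scg2: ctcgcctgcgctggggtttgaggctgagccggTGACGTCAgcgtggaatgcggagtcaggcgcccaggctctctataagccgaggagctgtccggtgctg
Pcsk1: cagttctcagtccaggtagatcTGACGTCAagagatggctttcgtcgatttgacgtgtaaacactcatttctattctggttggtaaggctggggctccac
Sst: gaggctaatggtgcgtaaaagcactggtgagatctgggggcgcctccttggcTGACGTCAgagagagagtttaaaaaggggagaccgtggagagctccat

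Of the genes with TGACGTCA, 4 were tested, with differences from -1.09 for Chgb to -0.33 for Sst. The AP-1 letters TGANTCA, searched on both strands, were in the window of Nts, Ddc, Pcsk1n, Rfx6 and Scgn (20% of the 25 genes, against 8.97% of all genes). The letters CATCTG, an E-box of the kind that NeuroD proteins bind, were on either strand in Gcg, Cck, Insl5, Sct and Nkx2-2 (20%, against 19.2%). A match is a description of the letters and not of a bound site. The 31 genes lie on 14 chromosomes, with 9 of them on chromosome 2, among them Gcg, Chgb and Pcsk2.

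Lists of further genes of the same cells had medians nearer to that of all genes. The 16 other hormone genes gave 9 tested, of which 6 were lower and 3 higher (median -0.17). Iapp, which encodes amylin, had the smallest p among them, at -1.05 and -1.72 in the controls, against -3.36 and -3.27 in the mutants (-1.93 ± 0.29, unadjusted p = 0.00102). Ppy, for pancreatic polypeptide (-1.01 ± 0.41), and Agt, for angiotensinogen (-0.55 ± 0.22), followed and did not pass the unadjusted threshold. Iapp and Ppy are islet hormones too. Of 7 islet markers 3 were tested, Iapp, Ppy and Mafa (0.02 ± 0.14), with a median of -1.01 (females -0.62, males -1.40) and a summed signal of 2.87 and 3.75 in controls, against 2.03 and 2.24 in the mutants, and Ins1, Ins2, Slc2a2 and G6pc2 stood well above background on no array. Of 9 pancreatic exocrine markers 4 were tested and all were lower, with a median of -0.63 (females -0.35, males -1.24) and a summed signal of 4.27 and 8.56 in controls, against 2.04 and 3.76 in the mutants. Amy2a5, for amylase, was well above background in the controls only and at least 3.29-fold lower in the mutants, Clps, for colipase, differed by -1.12 ± 0.47 and Ctrb1, for a chymotrypsinogen, by -0.14 ± 0.43. Prss2, Cpa1, Cpb1, Pnlip and Cela3b stood well above background on no array. The part of pancreatic RNA in the hormone differences was not tested.

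Of 18 other transcription factors and lineage genes 12 were tested, 7 lower and 5 higher (median -0.17). At an unadjusted p under 0.05, 4 were lower and none higher, against 3.98% and 5.31% of all genes. They included Lmx1a, a factor of enterochromaffin cells (-0.80 ± 0.29), Hepacam2, a surface gene that tuft and endocrine progenitor cells also express (-0.52 ± 0.18), and Etv1, an ETS factor (-0.48 ± 0.16). Lmx1a was dim in the mutants (-3.51 and -3.92), and well above background on only 1 of those 2 arrays. The 20 tested genes of vesicle fusion and granule function were lower in 18 cases (median -0.33, females -0.50, males -0.18), with 4 at an unadjusted p under 0.05. Their summed signal was 106 and 96.0 in the controls, against 93.9 and 99.1 in the mutants. The granule GTPase gene Rab3b (-0.63 ± 0.16), the glutaminyl cyclase gene Qpct (-0.67 ± 0.18), whose product caps the first residue of peptides such as neurotensin, and Resp18 (-0.65 ± 0.17) led them by p-value. Snap25 of this list is also among the neuron markers, and the part of neural RNA in the list was not tested. The nutrient and microbial sensing receptors stood closer to the median of all genes. Of the 12 tested, 9 were lower (median -0.11), and the potassium channel gene Kcnh2 (-0.69 ± 0.25) was the single one at an unadjusted p under 0.05. Cacna1a, a calcium channel gene (-0.29 ± 0.19), and Cnr1, for the cannabinoid receptor CB1 (-0.32 ± 0.22), did not pass.

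The receptors and breakdown enzymes of the hormones, which other cells of the colon carry, were lower in 12 of 18 tested genes (median -0.29). At an unadjusted p under 0.05, 4 were lower and none higher, against 3.98% and 5.31% of all genes. Npy4r, a receptor for pancreatic polypeptide and peptide YY, was at -1.14 and -1.09 in the controls, against -1.79 and -2.14 in the mutants (-0.85 ± 0.20, unadjusted p = 0.00700). The neurotensin receptor gene Ntsr1 differed by -0.88 ± 0.31, and Maob, for a monoamine oxidase, by -0.54 ± 0.17. Ntsr1 was dim in the mutants (-4.37 and -4.08), and well above background on only 1 of those 2 arrays. Rxfp4, the receptor gene for insulin-like peptide 5, and Glp1r stood well above background on no array.

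**Figure D4:**
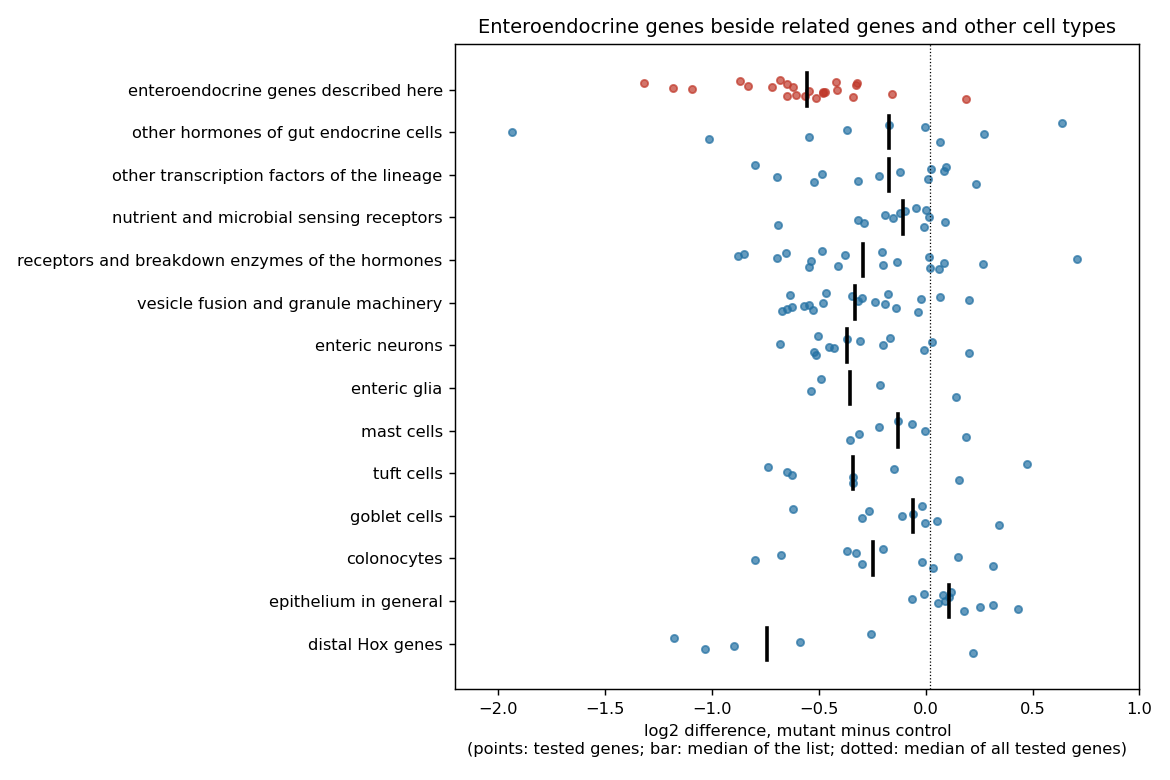
Log2 difference, mutant minus control, of each tested gene (points) in the enteroendocrine genes described here (red) and in lists of related genes and other cell types (blue), with a black bar at each list's median and a dotted line at the median of all tested genes (0.02). The enteroendocrine median (-0.55) lies lower than those of neurons (-0.37), goblet cells (-0.06) and epithelium in general (0.11), and that of the distal Hox genes (-0.74) lies lower. The pancreatic, cell cycle and neutrophil lists are not drawn.

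Markers of the other epithelial cells had medians between -0.34 and 0.11. General epithelial genes were higher in 9 of 11 cases (median 0.11), among them Cdx2 (0.43 ± 0.13), the intestinal identity factor, Cldn7 (0.32 ± 0.11) and Elf3 (0.25 ± 0.10), and their summed signal was 943 and 941 in the controls, against 993 and 1041 in the mutants. Goblet cell genes were lower in 7 of 9 cases and higher in 2, up to 0.34 (median -0.06). Among them were Fcgbp, for a mucus protein, at -0.62 ± 0.12, Zg16 at -0.30 ± 0.17 and Tff3 at -0.26 ± 0.19. The summed signal of the goblet cell genes was 1694 and 1882 in controls, against 1449 and 1778 in the mutants. Colonocyte genes were lower in 7 of 10 cases (median -0.25), with the water channel gene Aqp8 at -0.68 ± 0.26, Slc20a1 at -0.80 ± 0.34 and Guca2b, for uroguanylin, at 0.31 ± 0.12. Tuft cell genes were lower in 6 of 8 cases and higher in 2, up to 0.47 (median -0.34). Sh2d6 (-0.63 ± 0.27), Trpm5 (-0.74 ± 0.33) and Il17rb (-0.65 ± 0.34) had the smallest p-values of the list and fell short of the unadjusted threshold. The summed signal of the tuft cell genes was 6.63 and 9.36 in controls, against 5.96 and 7.97 in the mutants. Pou2f3, the tuft cell factor, stood well above background on no array. The differences between these lists and the enteroendocrine genes were not tested.

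Enteric neurons make several of the granule and processing genes, Chgb, Scg2, Scg3, Scg5, Pcsk1n, Pcsk2 and Cpe among them. Neuron markers were lower in 11 of 13 tested cases (median -0.37), with Stmn2 at -0.68 ± 0.13, Ret at -0.51 ± 0.16 and Nefl at -0.45 ± 0.22, and Nos1 stood well above background on no array. Their summed signal was 31.7 and 31.3 in the controls, 24.9 in the female mutant and 31.4 in the male mutant. Both mutants lay below both controls for 9 of the 13 neuron markers (17.6% of all genes), and 9 of the 13 were lower in both pairs (29.1% of all genes). In the male pair neuron markers had a median of -0.10 and the 24 enteroendocrine genes a median of -0.48. The named neuron markers gave -0.61 (Stmn2), -0.41 (Ret) and -0.16 (Nefl) in the male pair. Of the genes named here as shared with neurons, the male pair gave -0.88 for Chgb, -0.25 for Scg2, -0.33 for Scg3, -0.38 for Scg5, -0.38 for Pcsk1n, 0.026 for Pcsk2 and -0.49 for Cpe. In the female pair the medians were -0.61 for neurons and -0.58 for the enteroendocrine genes. Of the glial markers, S100b differed by -0.54 ± 0.18 and Sox10 by -0.21 ± 0.18, and Fabp7 stood well above background on no array. The part of neural RNA in the granule genes was not tested.

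The summed signal of distal Hox genes, whose level depends on the position along the colon, was lowest in the male mutant. That of the 24 enteroendocrine genes was lowest in the female mutant (85.9, against 106 in the male mutant). The distal Hox genes were lower in 5 of 6 tested cases (median -0.74, female pair -0.17, male pair -1.38). Hoxb13, the most distal of the B cluster, was at 4.82 and 3.52 in the controls, against 4.43 and 1.56 in the mutants (-1.18 ± 0.99), Hoxd10 differed by -0.59 ± 0.22 and Hoxa11 by 0.22 ± 0.13. Hoxd11 and Hoxc10 stood well above background on no array. The summed signal of the list was 31.9 and 14.1 in the controls, 25.1 in the female mutant and 4.94 in the male mutant, the array with the lowest Insl5 and Pyy. The part of the stretch of colon in these hormone differences was not tested. Without that male mutant, and so with 1 mutant array against 2 controls, the differences were -0.84 for Insl5, -0.75 for Pyy, -1.26 for Chga and -1.09 for Tph1. In the same fit the dim genes Neurod1 and Pax4 gave -0.12 and -0.28, and the median of the 24 genes was -0.69.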

How the data were processed

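RNA from whole colon was measured on 4 Agilent 1-colour arrays of 62976 spots. Per the file headers, the authors deposited scanner output of Agilent Feature Extraction (version 11.5.1.1), whose processed intensity is background-subtracted and not normalized between arrays, with flags for spots well above background. All arrays were on 1 slide in 1 scan, so neither could be a batch term. The log2 processed intensity minus each array's 75th percentile (intensities of 268 to 330) was used here. Control spots and outlier spots were left out, spots of a probe averaged, probes kept where 2 or more arrays were well above background, and the brightest probe taken for each gene. limma 3.58.1 (R 4.3.3) tested mutant minus control with an intensity trend and Benjamini-Hochberg adjustment over 19325 genes, after it had been tested on simulated data. With 2 arrays a group, precision is limited by their number. The labels do not say which arrays are which mice, but each group held a female and a male array, so the spread within a group includes sex. The 31 genes and all lists were chosen with earlier results of these data known, so no p was adjusted over a list. Every one of the 31 genes is named by role, and from each other list the 3 tested genes with the smallest p. Part of the glial list is not reported here. Summed signals add linear values over a list's tested genes. A fold against a group not well above background ("at least") uses the lowest signal among probes well above background on each such array, where it is higher than the probe's own.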

Additional observations from a re-analysis of the deposited data

Results flagged for a closer look

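Pcsk2, for the convertase PC2, was lower in the female pair (log2 difference -0.34) and nearly unchanged in the male pair (0.026). Each pair is 1 array against 1, and the difference between them was not tested. A second Nkx2-2 probe was well above background on the female mutant array at a log2 signal of -2.84 and on no control array (-6.23 and -5.22), nor on the male mutant (-6.11). The first Nkx2-2 probe was well above background on the female control array alone (-0.65). An Scn3a probe was likewise well above background on the female mutant array at -2.57, and not on the controls (-4.52 and -6.15) or the male mutant (-5.90). These probes did not enter the tests.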

How the results depend on the processing

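Of the 13 enteroendocrine genes with an unadjusted p under 0.05, 7 stayed under it in every alternative run (Chga, Chgb, Cpe, Insl5, Nts, Pyy and Tph1). The count of such genes was 12 to 14 under normexp, quantile normalization, other filters on dim probes, the mean of probes and no intensity trend, and 9 to 14 when 1 array was left out. Pcsk2 (-0.39 to 0.082), Sct (-0.70 to 0.063) and Sst (-0.69 to 0.040) ranged across 0 when 1 array was left out, reversing without mutant replicate 1. The median of the 24 genes (-0.55) was -0.41 with normexp and -0.69 to -0.46 when 1 array was left out. Over all genes, 770 were lower and 1026 higher at an unadjusted p under 0.05. With no filter on dim probes 2317 were lower, and leaving out 1 array gave 359 to 950 lower and 505 to 1217 higher. The replicate numbers, which the labels do not call pairs, served as a replicate block: 46 genes then passed an adjusted p of 0.05 in limma (0 in the other settings), 1437 were lower and 1945 higher unadjusted, and 18 enteroendocrine genes passed unadjusted. With the block, Chga had an adjusted p of 0.0460 in limma, the single enteroendocrine gene to pass, and Cck (unadjusted p = 0.0297), Sct (0.0371), Sst (0.0182), Scg2 (0.0228) and Scg5 (0.0148) passed unadjusted as well. Deviations of same-numbered arrays correlated at 0.239 over 19325 genes, and same-numbered arrays shared their sex, which the block takes out of the spread. A slide or scan block was not run, since all arrays share both. Dim genes such as Pax4 and Neurod1 lie near the background, which limits them.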

Other observations

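Genes of dividing cells, and some of neutrophils, had higher means in the mutant colon. All 10 cell cycle genes had a higher mean (median 0.85 on the log2 scale), 9 of them at an unadjusted p under 0.05, against 5.31% of all genes. Among them were Ube2c (0.92 ± 0.17), Birc5 (0.92 ± 0.19) and Plk1 (0.92 ± 0.20), which act in mitosis. The summed signal of the 10 genes, in units of each array's 75th percentile, was 29.0 and 25.2 in the controls, against 58.1 and 40.6 in the mutants. Of 6 tested neutrophil genes 4 were higher and 2 lower, 3 of the higher ones at an unadjusted p under 0.05, and their summed signal was 47.7 and 45.1 in controls, against 51.4 (female) and 76.2 (male) in mutants. Ltf, for lactoferrin, differed by 1.48 ± 0.26, and the calprotectin genes S100a8 and S100a9 by 2.24 ± 0.78 and 2.24 ± 0.88, while Ngp and Mpo were not well above background on any array.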
